A study of Mus musculus with 6 samples.

Results

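Potassium channel genes were taken as all mouse symbols starting with Kcn, without the antisense names, that had at least 50 UMIs (unique molecular identifiers, counted transcripts) over the 6 libraries. Of 99 such symbols, 4 were antisense names and 15 fell below the minimum, which left 80 members among 32285 annotated features. Kcnj8 (49 UMIs), Kcng4 (44) and Kcnj14 (41) lay just outside the minimum, and Kcnn4 (56), Kcnj5 (63) and Kcnk5 (65) lay just inside. The members held 2.14% of all UMIs and fell into 14 families by name. Kcnq1ot1, a long noncoding RNA from the Kcnq1 locus, is a member by its symbol, so 79 members are channel or channel-associated genes.

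The samples are 6 single-cell RNA libraries from hippocampal tissue of 6-month-old mice, 2 in each of 3 groups. WT_PBS are wild-type littermates given PBS, 5xFAD_PBS are 5×FAD mice given PBS, and 5xFAD_Ab3FTnAu are 5×FAD mice given Aβ3FTnAu, a protein and gold nanostructure directed at amyloid-β plaques per the series title. 5×FAD mice carry human familial Alzheimer's disease transgenes under the neuronal Thy1 promoter and build up plaques. All 3 groups were treated, with PBS or with the nanostructure, and wild-type mice given the nanostructure were not part of the groups analysed here. The labels name no animal behind a library, and all p-values here therefore measure only the spread between these libraries, which may be technical.

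Potassium channels let K+ leave or enter a cell along its electrochemical gradient and thereby set the resting potential, the shape of the action potential and the firing pattern. Voltage-gated channels (Kv families) open on depolarization and are assembled with auxiliary subunits, calcium- and sodium-activated channels respond to ion entry during firing, inward rectifiers and two-pore channels carry resting current. In glia, inward rectifiers of astrocytes take up K+ released by neurons, and two-pore channels of microglia hold their membrane potential.

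Cells were sorted into 8 classes by UMIs of fixed marker genes, none of which is a potassium channel gene. The classes were dentate granule neurons (5917 cells), CA1 (2562), CA2 (88), CA3 (2501) and interneurons (2030), astrocytes (993), oligodendrocytes (2436) and microglia (851). Together they held 17378 cells, 41.7% of those kept, and 48.7% met no class. A class name stands here for its marker UMIs. Summed markers that had not been used for the sorting were highest in their own class for all 8 classes. The margin was narrow for CA3, at a median of 14.2 CPM (a gene's UMIs per 1000000 UMIs summed over the cells of that class in that sample) against 10.5 or less elsewhere. The median cell held 1245 UMIs in microglia, 1333 in oligodendrocytes and 1572 in astrocytes, against 4310 to 8985 in the neuronal classes. None of the fixed CA3, astrocyte or oligodendrocyte markers was among the 10 genes with the largest fold in its class. Those 10 included Olfr553 in CA3, Slco1c1 and Gli2 in astrocytes, and Cldn14 and Gjc3 in oligodendrocytes.

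Libraries held 32528417 to 76780861 UMIs, and any pair shared 9 to 45 cell barcodes, at most 0.561% of the smaller library. Barcodes without a mitochondrial UMI made up 57.4% and 30.1% of the WT_PBS libraries, 22.7% and 17.9% of 5xFAD_PBS, and 66.6% and 65.8% of 5xFAD_Ab3FTnAu. Transcripts of 7 neuron genes together reached a median of 0.0681 of their neuronal level in astrocytes, 0.0701 in oligodendrocytes and 0.0917 in microglia. Neuronal level means the mean CPM of granule neurons, CA1 and CA3 in the same sample, without CA2 and interneurons. Single genes ran from 0.0364 (Rbfox3) to 0.177 (Nrgn) in astrocytes. Nrgn stood at 0.215 in oligodendrocytes and 0.212 in microglia. Glial barcodes rich in neuron-gene UMIs had been left out, which lowers these shares. A channel transcript at about these shares of its neuronal level in a glial class cannot be told apart from RNA of other cells in the droplet. A share above them does not by itself show that the glial cells made the transcript.

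The first question was how the channel genes are distributed over the 8 classes. Most tested channel genes were higher in 1 or more neuronal classes, and some were higher in glial classes. Examples of the latter are Kcnj16 and Kcnn3 in astrocytes, Kcnj10 in astrocytes and oligodendrocytes, and Kcna1 and Kcna6 in oligodendrocytes. Kcnk13 was higher in oligodendrocytes and microglia, and Kcnk6 in microglia. With CA2 left out, oligodendrocytes also had the highest median of Kcnab1 and Kcnq3. Astrocytes had that of Kcna2, Kcnip3 and Kcnk1, and microglia that of Kcnj2, Kcnk12 and Kcnrg. In edgeR's quasi-likelihood test of each class against the mean of the other 7 (Benjamini-Hochberg adjusted p under 0.05 and a log2 difference of at least 1), 57 members passed the filter on low counts and 23 did not. In granule neurons 31 of the 57 were higher, where 13.7% of all 13442 genes were, and 5 were lower (6.1% of all genes). The counts were 25 higher and 1 lower in CA1 (14.1% and 5.41%), 20 and 1 in CA2 (8.24% and 5.01%), 25 and 4 in CA3 (14.1% and 6.21%) and 16 and 7 in interneurons (14.2% and 6.15%). Glial classes had the opposite balance. In astrocytes 11 were higher and 28 lower (16.1% and 13.3%), in oligodendrocytes 9 and 36 (16.2% and 18.2%), and in microglia 5 and 38 (17.7% and 23.1%).

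The median log2 difference over the 57 members was 1.16 in granule neurons, 0.81 in CA1, 0.47 in CA2, 0.86 in CA3 and 0.36 in interneurons. It was -1.26 in astrocytes, -1.49 in oligodendrocytes and -1.98 in microglia. Over all genes the class medians lay between -0.23 (CA2) and 0.09 (granule neurons). Among the 51 members with a median of at least 20 CPM in some class other than CA2, 16 had 1 class above the other 6 in every sample (31.4%, against 25.2% of 10974 genes). Among them, granule neurons were that class for Kcnc4, Kcnj6 and Kcnk10, CA1 for Kcnh7, CA3 for Kcnma1 and Kcnq5, interneurons for Kcnc1, Kcnc2, Kcnip1, Kcnmb2 and Kcns3, astrocytes for Kcnj16 and Kcnn3, and oligodendrocytes for Kcna1 and Kcna6. CA2 was left out of that count because it held only 5 to 24 cells per sample.

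**Figure D1:**
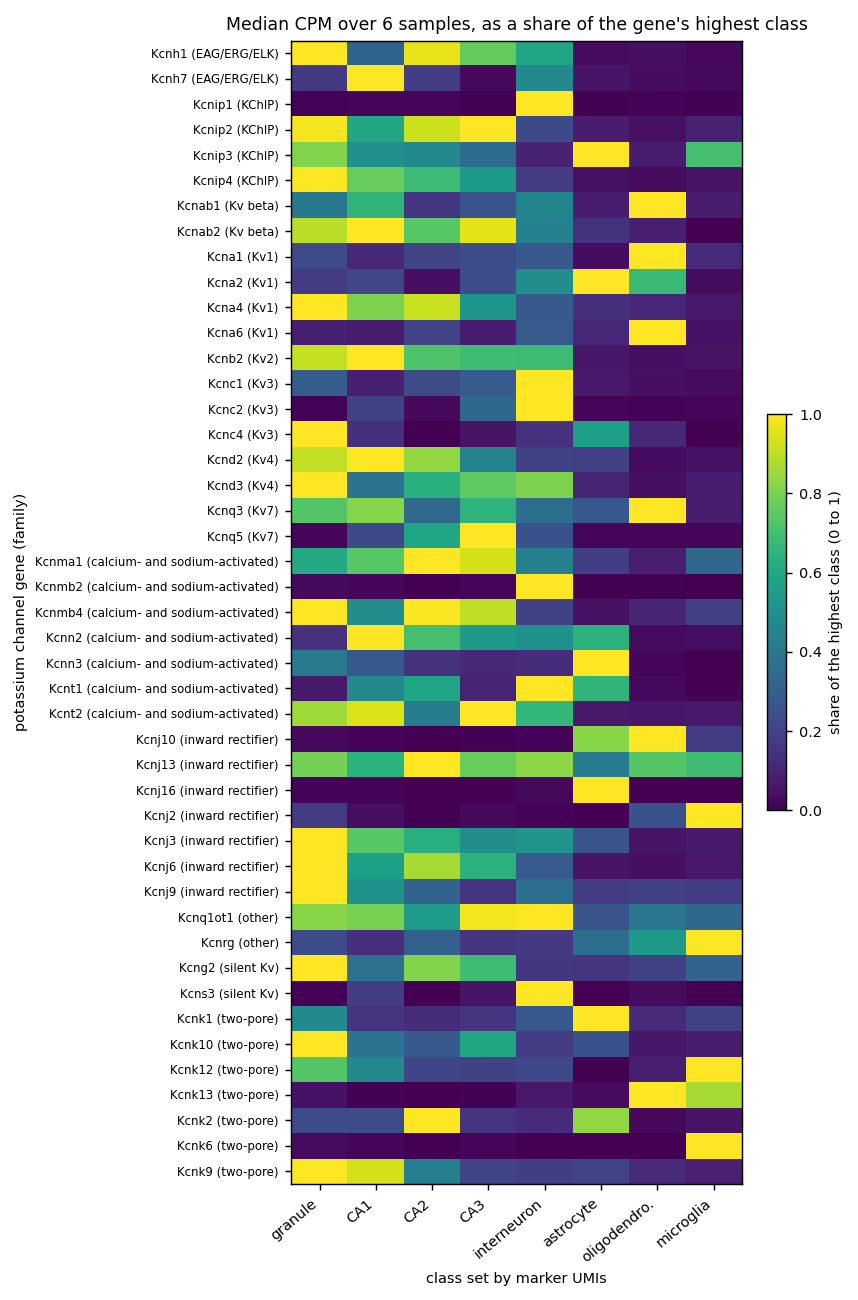
Each row is 1 of 45 potassium channel genes described in the text with a median of at least 20 CPM in some class other than CA2, grouped by family, and each column is a class set by marker UMIs. Colour gives the gene's median CPM over 6 samples as a share of its highest class, so that a row with a single bright cell, such as Kcnmb2 in interneurons or Kcnj16 in astrocytes, is a gene concentrated in 1 class.

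Of the 4 tested Kv1 genes, 3 were higher in oligodendrocytes and all 4 were lower in microglia. Kcna1, which encodes a low-threshold axonal Kv1 channel, ran from 185 to 357 CPM (median 249) in oligodendrocytes, against medians of 8.06 in astrocytes to 68.0 in interneurons. No sample of another class reached the lowest oligodendrocyte sample. The log2 difference was 2.79 ± 0.10 (SE, n = 6 samples, edgeR adjusted p = 1.15e-37). Kcna6, a further Kv1 channel, spanned 107 to 170 CPM (median 147) in oligodendrocytes and 25.7 to 58.5 (median 42.3) in interneurons, which were next. Its log2 difference in oligodendrocytes was 3.18 ± 0.12 (edgeR adjusted p = 2.28e-36). Kcna1 and Kcna6 lie 61.95 kb apart on chromosome 6 (GRCm38), on the same strand. Kcna2, the axonal partner of Kcna1, was called higher in both astrocytes (41.8 to 102 CPM, median 70.2) and oligodendrocytes (38.1 to 54.1, median 47.3), whose samples overlapped. Kcna4, an A-type channel, was highest in granule neurons (42.4 to 93.5 CPM, median 61.2) and CA1 (32.9 to 65.5, median 49.1). Kcna3, a channel studied in activated microglia, was near 0 in all 8 classes, and microglia held it in 1 sample only (2.75 CPM).

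The Kv2 gene Kcnb2 and both tested Kv4 genes were higher in granule neurons and lower in oligodendrocytes and microglia. Kcnb2, a delayed rectifier, had medians of 706, 776, 561, 533 and 533 CPM in granule neurons, CA1, CA2, CA3 and interneurons and of 49.5 or less in glia. Kcnd2, the main A-type channel of hippocampal dendrites, was highest in CA1 (4166 to 5018 CPM, median 4458) and granule neurons (median 4051) and at 869 in interneurons. The CA1 log2 difference was 2.49 ± 0.08 (edgeR adjusted p = 1.15e-37). Kcnd3, the other Kv4 gene tested, was highest in granule neurons (278 to 394 CPM, median 357), with interneurons (188 to 370, median 289) overlapping them. In astrocytes Kcnd2 stood at 0.235 of its neuronal level, against 0.0681 for the neuron genes together and 0.177 for Nrgn, the highest of them. In microglia Kcnd2 stood at 0.0588, below the 0.0917 of the neuron genes. Leaving out glial barcodes rich in neuron-gene UMIs lowers the shares of the neuron genes. The source of the Kcnd2 RNA in astrocytes was not tested.

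Kv3 genes, whose channels repolarize fast-spiking cells, divided by class. Kcnc1 spanned 173 to 238 CPM (median 203) in interneurons against medians of 59.8 in granule neurons and 58.2 in CA3, and no sample of another class reached the lowest interneuron sample. Kcnc2 ran from 1316 to 1992 CPM (median 1885) in interneurons, with 636 in CA3, 373 in CA1 and 16.3 in granule neurons. Kcnc4 was instead highest in granule neurons: 22.7 to 30.6 CPM (median 26.9) there, 3.87 in interneurons and 0 UMIs in CA2 (edgeR adjusted p = 1.28e-23 in granule neurons). Astrocytes were the second class for Kcnc4, at a median of 15.2 CPM.

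Auxiliary subunits followed. Kcnip4, a KChIP subunit of Kv4 channels, spanned 11638 to 14782 CPM in granule neurons (median 12605), with 9655 in CA1, 8638 in CA2, 6852 in CA3 and 2233 in interneurons. Its share of the neuronal level was 0.0563 in astrocytes, 0.0380 in oligodendrocytes and 0.0722 in microglia, in each case below that of the neuron genes. Kcnip1, another KChIP, was an interneuron gene at 281 to 529 CPM (median 420), against medians of 8.2 or less in every other class. The interneuron log2 difference was 6.29 ± 0.10 (edgeR adjusted p = 8.43e-57). Kcnip3, which also acts as the transcriptional repressor DREAM, was called higher in astrocytes (69.5 to 155 CPM, median 119) and granule neurons (median 96.3), and it stood at 83.8 in microglia and 11.4 in interneurons. Kcnip2, also a KChIP, was highest in CA3 and granule neurons (medians 71.7 and 70.6). Kcnab1, a Kv beta subunit, was highest in oligodendrocytes (450 to 1124 CPM, median 943) and next in CA1 (536 to 841, median 617), with overlapping samples.

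The Kv7 genes carry the M-current, which restrains repetitive firing. Kcnq5 ran from 3972 to 5139 CPM (median 4257) in CA3, 1070 to 3147 (median 2513) in CA2, and stood at medians of 1072 in interneurons, 935 in CA1 and 54.4 in granule neurons. Every CA3 sample lay above every sample of the other classes, and the log2 difference was 4.62 ± 0.09 (edgeR adjusted p = 1.04e-52). The granule value depends on barcodes of more than 3 times the class median depth, which were left out: with them the mean granule level was 190 instead of 51.9 CPM. The Kcnc2 level in granule neurons went likewise from 20.6 to 53.1 CPM, and the other members with at least 5 CPM there differed by at most 1.28 times. Kcnq3, a further M-current gene, was highest in oligodendrocytes, at 917 to 1254 CPM (median 1023), with CA1 at 702 to 990 (median 838).

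Kcnh7, an ERG-type channel, ran from 1623 to 2334 CPM (median 1920) in CA1, 685 to 1072 (median 907) in interneurons and 24.1 to 68.6 (median 41.2) in CA3. No sample of another class reached CA1, and the log2 difference was 4.04 ± 0.08 (edgeR adjusted p = 8.69e-52). Kcnh8, an ELK channel, was called in CA2 from 0 to 96.4 CPM (median 18.7) and stayed at medians of 5.15 or less in the other classes, so its CA2 values overlapped theirs. Kcnh1, an EAG channel, was shared by granule neurons (median 210), CA2 (203), CA3 (160) and interneurons (123). Of the silent Kv subunits, which modify Kv2 channels, Kcns3 marked interneurons (107 to 149 CPM, median 141) and next CA1 (21.3 to 27.3, median 25.4), and both were called.

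Calcium- and sodium-activated channel genes had 7 tested members, all of them lower in microglia. Kcnma1, the BK channel, was highest of the 7 larger classes in CA3 (1463 to 1716 CPM, median 1530), and every CA3 sample exceeded those of the other 6. Kcnmb2, the BK subunit that inactivates it, was at 984 to 1107 CPM (median 1040) in interneurons against medians of 24.8 or less elsewhere, with a log2 difference of 6.80 ± 0.11 (edgeR adjusted p = 2.83e-56). Kcnn2, an SK channel of the afterhyperpolarization, was highest in CA1 (670 to 1266 CPM, median 870) and low in granule neurons (median 123). Astrocytes held Kcnn2 at 492 to 814 CPM (median 559), below the CA1 median. Their share was 1.19 of the neuronal level, a mean that includes the low granule neurons. Kcnn3, also an SK channel, was the astrocyte gene of the family, at 62.1 to 121 CPM (median 96.7) against 39.5 or less in other class medians (edgeR adjusted p = 2.85e-22). Kcnt2, a sodium-activated channel, was present in all neuronal classes, with a median from 189 in CA2 to 449 in CA3, and Kcnt1, its relative, was called in interneurons (median 57.1), CA1, CA2 and astrocytes (37.3), with 0 UMIs in microglia. Kcnmb4, the neuronal BK subunit, was highest in granule neurons and CA3 (medians 57.9 and 52.3 CPM) and called lower in interneurons (11.2).

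**Figure D2:**
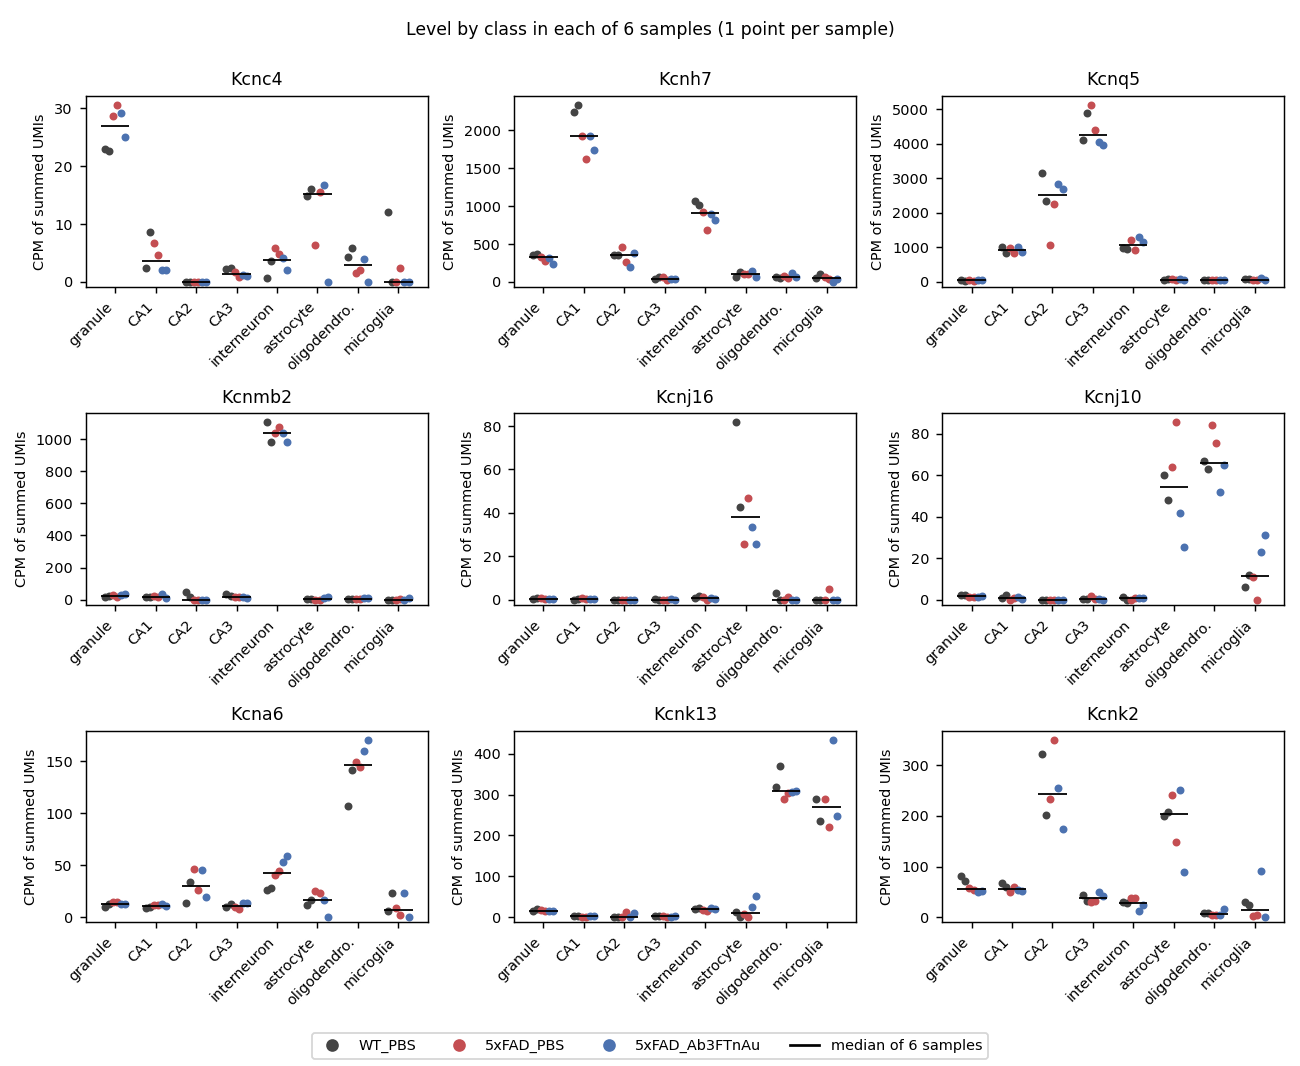
Each panel is 1 gene, with the CPM of summed UMIs on the vertical axis, 1 point per sample in each of the 8 classes and a line at the median of 6 samples, and colours mark the 3 groups. Kcnc4, Kcnh7, Kcnq5, Kcnmb2, Kcnj16 and Kcna6 each have 1 class above the other larger ones in every sample, Kcnj10 and Kcnk13 are high in 2 glial classes, and Kcnk2 is high in CA2 and astrocytes.

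Inward rectifiers comprised neuronal and glial genes. Kcnj3 and Kcnj6, the G-protein-coupled GIRK channels, were highest in granule neurons: Kcnj3 at 717 to 1120 CPM (median 773) and Kcnj6 at 518 to 767 (median 613). The log2 difference of Kcnj6 was 2.5 ± 0.07 (edgeR adjusted p = 1.04e-43). Kcnj10, the Kir4.1 channel of glia, spanned 25.5 to 85.4 CPM (median 54.1) in astrocytes and 51.8 to 84.2 (median 65.9) in oligodendrocytes, whose samples overlapped. Neuronal medians of Kcnj10 were 1.64 or less, and CA2 held 0 UMIs. Kcnj16, the Kir5.1 partner of Kcnj10, was found in astrocytes at 25.5 to 81.7 CPM (median 38.1) with medians of 0.83 or less in every other class (edgeR adjusted p = 2.25e-25). Kcnj2, the Kir2.1 channel, was highest in microglia at 0 to 97.7 CPM (median 45.8), with oligodendrocytes at 11.6 and granule neurons at 7.88. Its microglial values differed by group and are given with the group comparisons. Kcnj2 lies 38.2 kb from Kcnj16 and Kcnj9 lies 11.9 kb from Kcnj10, yet each pair had different highest classes (microglia and astrocytes, granule neurons and oligodendrocytes).

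Two-pore (K2P) channel genes gave microglia 3 of their 5 higher members. Kcnk13 (THIK-1), the resting K+ channel of microglia, was at 222 to 434 CPM (median 268) in microglia and at 290 to 369 (median 308) in oligodendrocytes. The 2 classes overlapped, and all other class medians were 20.6 or less. Log2 differences were 4.14 ± 0.15 in microglia (edgeR adjusted p = 1.59e-35) and 4.92 ± 0.10 in oligodendrocytes (1.56e-51 by the same test). Kcnk6 (TWIK-2), a channel of macrophages, was seen at 0 to 48.2 CPM (median 24.3) in microglia, with 1 of 6 samples at 0, and at medians of 0.69 or less in all other classes (edgeR adjusted p = 1.22e-15). Kcnk12, a relative of Kcnk13, had a median of 40.4 CPM in microglia and 29.6 in granule neurons, with overlapping samples. Kcnk1 (TWIK-1) was highest in astrocytes (50.2 to 203 CPM, median 124), overlapping granule neurons (54.1 to 96.7). Kcnk2 (TREK-1) was shared by CA2 (174 to 351 CPM, median 244) and astrocytes (89.1 to 251, median 204), and the remaining class medians were 56.1 or less.

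The remaining members gave weaker class contrasts. Kcnk10 (TREK-2) was at 105 to 128 CPM (median 112) in granule neurons, above every sample of the other larger classes, and Kcnk9 (TASK-3) was shared by granule neurons and CA1 (medians 56.3 and 52.7). Kcng2 and Kcng1, silent Kv subunits, were both called higher in granule neurons and lower in interneurons, Kcng2 with medians of 59.8 and 9.57 CPM. Kcnrg, which encodes a regulator of Kv assembly, was highest in microglia (72.4 to 154 CPM, median 130) and next in oligodendrocytes (49.7 to 101, median 69.7). Kcnq1ot1, the noncoding member, was called higher in CA3 (median 629 CPM) and lower in astrocytes (167) and microglia (217). The 23 members that were not tested had their highest class median, CA2 left out, between 0.096 CPM (Kcnj5, a GIRK channel) and 10.7 CPM (Kcnq1).

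Promoter sequence is shown for 4 members with a glial class pattern, from the RefSeq table for GRCm38.p6 (250 bases before the start to 50 after it). The table matched 57 of the 80 members with 81 promoters. Kcnk13 and Kcnj2 stand for microglia, Kcnj10 for astrocytes and oligodendrocytes, and Kcna6 for oligodendrocytes. Capitals mark the letters GAGGAA, a core of PU.1 sites, or ACAAAG, a core of SOX sites, on either strand, so that a match on the other strand reads TTCCTC or CTTTGT.
Kcnk13, chr12:99964249-99964548, + strand: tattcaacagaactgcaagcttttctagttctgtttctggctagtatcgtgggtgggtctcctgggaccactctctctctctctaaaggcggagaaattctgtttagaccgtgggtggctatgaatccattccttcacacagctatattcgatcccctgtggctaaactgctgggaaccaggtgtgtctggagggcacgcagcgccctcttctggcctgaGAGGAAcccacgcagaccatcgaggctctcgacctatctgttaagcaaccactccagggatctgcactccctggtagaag
Kcnj2, chr11:111065914-111066213, + strand: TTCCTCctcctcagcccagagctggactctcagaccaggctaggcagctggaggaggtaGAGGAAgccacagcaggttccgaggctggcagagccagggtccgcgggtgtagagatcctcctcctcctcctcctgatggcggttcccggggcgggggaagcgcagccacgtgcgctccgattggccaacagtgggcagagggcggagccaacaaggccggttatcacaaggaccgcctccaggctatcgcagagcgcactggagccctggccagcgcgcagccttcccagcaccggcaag
Kcnj10, chr1:172340960-172341259, + strand: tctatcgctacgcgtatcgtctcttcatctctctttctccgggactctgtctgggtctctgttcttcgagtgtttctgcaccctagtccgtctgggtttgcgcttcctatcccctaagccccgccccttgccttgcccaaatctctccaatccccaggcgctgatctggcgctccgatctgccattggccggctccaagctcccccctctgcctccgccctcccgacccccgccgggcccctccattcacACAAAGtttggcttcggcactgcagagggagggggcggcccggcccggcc
Kcna6, chr6:126740625-126740924, - strand: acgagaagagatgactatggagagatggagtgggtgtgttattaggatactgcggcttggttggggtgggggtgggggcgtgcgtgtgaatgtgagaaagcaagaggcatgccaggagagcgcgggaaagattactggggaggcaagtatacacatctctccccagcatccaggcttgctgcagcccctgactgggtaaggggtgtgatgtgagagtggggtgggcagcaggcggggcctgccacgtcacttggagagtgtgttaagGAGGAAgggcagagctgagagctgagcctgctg
The promoter of Kcnk13 held 1 GAGGAA match and that of Kcnj2 held 2, those of Kcna6 and Kcnj10 held 1 match to GAGGAA and to ACAAAG, respectively. GAGGAA was found in 28.3% of all 32851 promoters and in 24 of the 81 member promoters (29.6%), and ACAAAG in 18.7% of all and 12 of 81 (14.8%). A match describes the letters and is not a bound site.

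Beside the channels, 32 genes of channel partners and potassium handling were followed, of which 29 were tested between classes. Of the 29, granule neurons were higher in 10 and lower in 3, CA1 in 13 and 2, CA2 in 4 and 1, CA3 in 8 and 2, and interneurons in 11 and 1. Astrocytes were higher in 4 and lower in 13, oligodendrocytes in 4 and 11, and microglia in 2 and 16. The shares of all genes called in each class are those given above for the channels. The astrocyte genes included Atp1b2, a subunit of the glial sodium pump, Adam23 and Lgi1. The oligodendrocyte genes were Ank3, Cntn2, Hcn2 and Slc12a2, and the microglial ones included Slc12a2, a cation-chloride cotransporter. The CA1 genes included Dpp6 and Dpp10, auxiliary subunits of Kv4 channels.

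The comparison of 5xFAD_PBS with WT_PBS asked which channel genes differ with the 5×FAD transgenes. All calls fell in microglia: Kcnma1 was higher and Kcnd2 and Kcnip4 were lower. Over all classes 293 pairs of a member and a class could be tested, and 3 passed an edgeR adjusted p under 0.05 within the class (1.02%, against 0.613% of 70190 pairs of all genes, of which 0.313% were higher and 0.299% lower). Within microglia 1 of 11 tested members was higher and 2 were lower, where 5.79% and 5.57% of all genes were. In bulk sums of this kind, fewer cells with a transcript and less transcript per cell cannot be told apart.

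Kcnma1 in microglia stood at 235 and 504 CPM in WT_PBS, 607 and 620 in 5xFAD_PBS, and 389 and 611 in 5xFAD_Ab3FTnAu. Both 5xFAD_PBS values lay above both wild-type ones, and the wild-type libraries differed from each other by more than the groups' nearest values did. The log2 difference was 0.81 ± 0.27 (edgeR adjusted p = 0.0468). With mixed glial barcodes kept (those with at least 0.4% neuron-gene UMIs, otherwise left out) it turned to -0.23 (edgeR adjusted p = 0.760). Kcnd2 stood at 392 and 246 CPM in WT_PBS, 181 and 169 in 5xFAD_PBS, and 274 and 145 in 5xFAD_Ab3FTnAu, with a log2 difference of -0.97 ± 0.26 (edgeR adjusted p = 0.0146). Kcnip4 stood at 1049 and 903 CPM, 646 and 565, and 731 and 321 in the same order, with -0.73 ± 0.24 (edgeR adjusted p = 0.0489). For both genes the wild-type and 5xFAD_PBS libraries did not overlap. In microglia Kcnd2 and Kcnip4 stood at 0.0588 and 0.0722 of their neuronal level, below the 0.0917 of the neuron genes. Neither can be told apart there from RNA of other cells in the droplet. The calls of Kcnma1, Kcnd2 and Kcnip4 were all lost with DESeq2 and with very deep barcodes kept, among others. Those of Kcnd2 and Kcnip4 were also lost without the count filter. Those of Kcnma1 and Kcnip4 were also lost with the strict cell filter and in cells with a mitochondrial UMI. The 7 neuron genes in the same microglial sums were at 1043 to 1320 CPM in WT_PBS, 708 to 800 in 5xFAD_PBS and 766 to 1211 in 5xFAD_Ab3FTnAu, and their part in the result was not tested. Of 13 partner genes tested there, Ank3 and Dlg2 were also lower in 5xFAD_PBS microglia. The calls of all 3 channel genes were lost when either 5xFAD_PBS library or WT_PBS replicate 1 was left out. The number of calls over all classes rose without WT_PBS replicate 2.

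Kcnj2 in microglia was too rare for the filter on low counts in that fit. Its UMIs numbered 1 and 0 in WT_PBS, 25 and 41 in 5xFAD_PBS, and 1 and 7 in 5xFAD_Ab3FTnAu. In CPM these were 6.03 and 0, 68.7 and 97.7, and 22.9 and 72.4, so both 5xFAD_PBS libraries exceeded both wild-type ones, and treated libraries overlapped 5xFAD_PBS. Cells with a Kcnj2 UMI made up 0.80% and 0% of the wild-type, 8.70% and 11.1% of the 5xFAD_PBS and 2.94% and 8.45% of the 5xFAD_Ab3FTnAu microglia. Pooled over libraries, the ratio of 5xFAD_PBS to WT_PBS was 21.2, with an exact 95% interval of 3.67 to 848 that covers counting error only. For 5xFAD_Ab3FTnAu to WT_PBS the ratio was 14.3 (1.92 to 635). Without the filter, edgeR gave an adjusted p of 0.000116 for 5xFAD_PBS against WT_PBS and of 0.169 for 5xFAD_Ab3FTnAu against WT_PBS, which was no call. Taken in the wild-type libraries alone, Kcnj2 was not called as higher in microglia than in the other classes (edgeR adjusted p = 0.795).

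Of 7 vascular genes, Flt1 was higher in both 5xFAD_PBS libraries than in the other 4, and the others were at 0 to 23.4 CPM in these sums. The 7 vascular genes together stood at 18.1 to 35.2 CPM in WT_PBS microglia, 153 to 154 in 5xFAD_PBS and 22.9 to 41.4 in 5xFAD_Ab3FTnAu, of which Flt1 was 0 in both WT_PBS libraries, 141 to 146 CPM in 5xFAD_PBS and the whole sum in 5xFAD_Ab3FTnAu. The treated sums overlapped those of WT_PBS. Left to barcodes without any vascular UMI, Kcnj2 was at 6.16 and 0 CPM in WT_PBS, 58.6 and 95.6 in 5xFAD_PBS, and 23.6 and 75.3 in 5xFAD_Ab3FTnAu. The 36 barcodes assigned to the vascular list held 0 UMIs of Kcnj2. Of these, 17 and 8 came from WT_PBS, 9 and 1 from 5xFAD_PBS and 0 and 1 from 5xFAD_Ab3FTnAu. They are too few to describe vascular Kcnj2 in 5×FAD mice. Kcnk13 in microglia did not pass the test: 289 and 234 CPM in WT_PBS, 289 and 222 in 5xFAD_PBS, and 434 and 248 in 5xFAD_Ab3FTnAu, with a log2 difference of -0.11 ± 0.26 between 5xFAD_PBS and WT_PBS (edgeR adjusted p = 0.854).

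**Figure D3:**
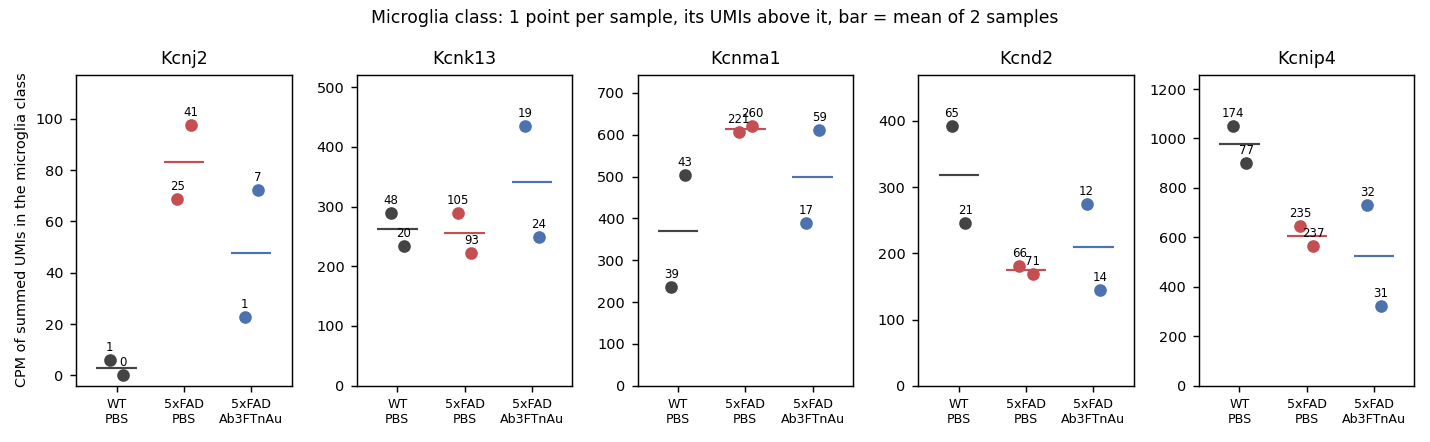
The CPM of summed UMIs in the microglia class is plotted for 5 genes in each of the 3 groups, with 1 point per sample, its UMI count above the point and a bar at the mean of 2 samples. Kcnj2 is at 0 and 6.03 CPM in WT_PBS against 68.7 and 97.7 in 5xFAD_PBS, while Kcnk13 overlaps between the groups.

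In the other classes no member passed the edgeR test between 5xFAD_PBS and WT_PBS. Over all classes 41 pairs had an unadjusted p under 0.05 (14.0%, against 8.39% of all pairs), and DESeq2 called 0 pairs. The smallest p-values in neurons belonged to Kcnj3 and Kcnn3. Kcnj3 in granule neurons was at 1120 and 1045 CPM in WT_PBS and at 764 and 717 in 5xFAD_PBS, without overlap, a log2 difference of -0.55 ± 0.09 (edgeR adjusted p = 0.384). Kcnj3 had the same order in CA1 (766 and 732 against 540 and 535 CPM) and CA3 (479 and 452 against 340 and 291). Kcnn3 in CA1 was at 17.5 and 15.05 CPM in WT_PBS and 32.3 and 37.9 in 5xFAD_PBS (edgeR adjusted p = 0.556). In astrocytes Kcnq1ot1 was at 106 and 107 CPM against 204 and 241 (edgeR adjusted p = 0.325), without overlap. Kcnj10 and Kcnj16 in astrocytes were below the filter on low counts and were not tested between groups: Kcnj10 stood at 60.1 and 48.1 CPM in WT_PBS, 63.7 and 85.4 in 5xFAD_PBS and 41.8 and 25.5 in 5xFAD_Ab3FTnAu, and Kcnj16 at 81.7 and 42.8, 25.5 and 46.6, and 33.4 and 25.5. These rest on 2 to 83 UMIs per library. The smallest p-values elsewhere were those of Kcna6 and Kcnj13 in interneurons (edgeR adjusted p = 0.773 for both), Kcnk1 in oligodendrocytes (0.352), and Kcnab1 in CA2 (0.878).

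Whether the effect of the transgenes differed between classes was tested as the difference from the effect in granule neurons. Of 399 pairs 2 were called (0.501%, against 0.286% of 94094 pairs of all genes, 0.22% higher and 0.0659% lower). They were Kcnab1 in oligodendrocytes, where 0.379% of all genes had a higher and 0.0595% a lower effect than in granule neurons, and Kcnj2 in microglia (0.893% and 0.387%). Kcnab1 in oligodendrocytes was at 450 and 769 CPM in WT_PBS and 1105 and 842 in 5xFAD_PBS, and in granule neurons at 391 and 373 against 356 and 312. The order of the libraries was thus opposite in the 2 classes, though Kcnab1 was not called between these groups in either class alone. The difference in effect was 0.96 ± 0.19 log2 (edgeR adjusted p = 0.00444). The call was lost without WT_PBS replicate 1, where the difference was 0.54 (edgeR adjusted p = 0.613), and without 5xFAD_PBS replicate 2 (1.01, adjusted p = 0.108). For Kcnj2 the edgeR adjusted p was 0.00655, and granule neurons had 6.34 to 8.97 CPM over all samples. By the same test it was 0.0527 without WT_PBS replicate 2 and 0.0775 without WT_PBS replicate 1, and the call was also lost without 5xFAD_PBS replicate 2.

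The comparison of 5xFAD_Ab3FTnAu with 5xFAD_PBS asked what the nanostructure changes in 5×FAD mice. It shares the 5xFAD_PBS libraries with the comparison above. No potassium channel gene passed the edgeR test in any class (0 of 293 pairs, against 0.0826% of all pairs, 0.0271% higher and 0.0556% lower). At an unadjusted p under 0.05 there were 37 pairs, 12.6% of those tested against 13.9% over all genes, and DESeq2 called 1. The smallest p in granule neurons was that of Kcnc2, at 13.3 and 8.19 CPM in 5xFAD_PBS and 36.4 and 33.0 in 5xFAD_Ab3FTnAu, without overlap (log2 difference 1.70 ± 0.27, edgeR adjusted p = 0.155). Kcnc2 in granule neurons was the 1 DESeq2 call (DESeq2 adjusted p = 0.00101). With very deep barcodes kept, which hold 10.5% and 7.19% of granule UMIs in 5xFAD_PBS and 23.2% and 49.2% in 5xFAD_Ab3FTnAu, Kcnc2 was at 16.6 and 8.03 against 62.3 and 161.9 CPM (log2 difference 3.20, edgeR adjusted p = 0.116). Their part in the difference was not tested.

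Kcnn2 had the same order in 5 classes. In interneurons it stood at 421 and 348 CPM in 5xFAD_PBS and 667 and 604 in 5xFAD_Ab3FTnAu (log2 difference 0.76 ± 0.18, edgeR adjusted p = 0.120). In CA3 it was at 445 and 431 against 680 and 665, in granule neurons at 125 and 118 against 187 and 175, in CA1 at 772 and 805 against 1104 and 1266 (670 and 934 in WT_PBS), and in astrocytes at 548 and 497 against 811 and 814. The treated libraries did not overlap the 5xFAD_PBS ones in any of these classes, and no call passed. All 5 classes come from the same libraries, so their orders are not independent. The share of all genes without such overlap was not computed. With very deep barcodes kept, granule Kcnn2 was at 132 and 117 CPM in 5xFAD_PBS and 230 and 329 in 5xFAD_Ab3FTnAu. In astrocytes the log2 difference of Kcnn2 was 0.57 (edgeR adjusted p = 0.482), and it turned to -0.63 under the strict cell filter (edgeR adjusted p = 0.552). Kcnq3 in CA1 was at 708 and 702 CPM against 984 and 990, also without overlap (log2 difference 0.50 ± 0.11, edgeR adjusted p = 0.131). Microglial Kcnrg and Kcnab1 and oligodendrocyte Kcnj13 and Kcnd3, which had the smallest p in those classes, gave adjusted p-values of 0.535 to 0.668. The WT_PBS libraries enter this fit through the count filter, the size factors and the estimate of spread, and leaving either out raised the number of calls.

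Treated 5×FAD mice were also set against WT_PBS, a comparison that shares its libraries with both others. Of 293 pairs 15 were called (5.12%, against 3.45% of all pairs), 12 higher and 3 lower (1.85% and 1.59% of all pairs were). By class, with the share of all genes higher and lower there in brackets, the calls were 1 lower in granule neurons (0.563% and 0.355%), 3 higher in CA1 (1.49% and 1.21%), 2 higher in CA3 (2.7% and 2.24%), 6 higher and 1 lower in interneurons (3.67% and 3.61%), 1 higher in oligodendrocytes (1.1% and 0.969%) and 1 lower in microglia (2.92% and 2.02%). None was called in CA2 or astrocytes by edgeR, where the smallest adjusted p-values were 0.454 and 0.183. In 10 of the 15 both 5xFAD_PBS libraries lay between the 2 compared groups, and in 5 they overlapped 1 of them. The 15 pairs were picked for the difference between those 2 groups. No share over all called genes is given, so the counts do not show a graded change.

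Interneurons held 7 of the 15. Kcna6 was at 25.7 and 27.8 CPM in WT_PBS, 40.1 and 44.4 in 5xFAD_PBS and 52.6 and 58.5 in 5xFAD_Ab3FTnAu, in 3 separate steps (log2 difference 1.11 ± 0.21 to wild type, edgeR adjusted p = 0.0285). Kcnh1 rose from 88.3 and 107 CPM to 176 and 147 (0.78 ± 0.18, edgeR adjusted p = 0.0364). Kcnip1, the interneuron KChIP, rose from 281 and 380 to 529 and 483 (0.66 ± 0.17, edgeR adjusted p = 0.04998), and Kcnj6 from 125 and 158 to 238 and 219. Kcnq1, the cardiac Kv7 gene, was at 3.36 and 8.05 against 18.6 and 25.8 CPM. It overlaps Kcnq1ot1 on the opposite strand, and since the strand setting of the counting is not given, reads of the pair cannot be told apart. Kcnj4 fell from 10.1 and 7.31 to 1.36 and 3.01 CPM (-1.93 ± 0.51, edgeR adjusted p = 0.0486). The call of Kcnj4 held in 4 of 14 alternatives and that of Kcnip1 in interneurons in 7 of 17. The interneuron markers Sst, Pvalb, Vip, Npy and Lamp5 were at a sum of 720 to 1170 CPM in WT_PBS, 691 to 1061 in 5xFAD_PBS and 277 to 316 in 5xFAD_Ab3FTnAu. The sum was lower in the treated libraries only, while WT_PBS and 5xFAD_PBS overlapped. Lamp5 was not lower with treatment, at 55.5 and 46.8 CPM in WT_PBS and 63.9 and 46.5 in 5xFAD_Ab3FTnAu. The part of interneuron subtypes in these calls was not tested.

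In CA1, Kcnab1 rose from 595 and 536 CPM in WT_PBS to 841 and 823 in 5xFAD_Ab3FTnAu (log2 difference 0.56 ± 0.11, edgeR adjusted p = 0.0437), with 596 and 639 in 5xFAD_PBS. Kcnj6 rose from 297 and 315 to 486 and 437 (0.60 ± 0.13, edgeR adjusted p = 0.0491). Kcnip1, at 3.21 and 2.85 against 8.97 and 13.6 CPM, was low in CA1 in all groups. The CA1 check markers were at 77.3 to 102 CPM in WT_PBS and 52.5 to 52.9 in the treated group, and their part was not tested. In CA3, Kcnh1 rose from 119 and 127 to 201 and 198 CPM (0.69 ± 0.12, edgeR adjusted p = 0.0415) and Kcnab2, a Kv beta subunit, from 49.5 and 50.7 to 84.8 and 76.3. The 7 genes that define CA3 summed to 2174 to 2180 CPM in WT_PBS, 2257 to 2477 in 5xFAD_PBS and 2571 to 2574 in the treated CA3 cells, and the 2 check markers to 17.9 to 29.2, 12.8 to 14.3 and 13.4 to 14.1 in the same order. Their part was not tested. In granule neurons Kcnj3 fell from 1120 and 1045 CPM to 738 and 781 (-0.52 ± 0.09, edgeR adjusted p = 0.0479), with 5xFAD_PBS at 764 and 717. In microglia Kcnip4 fell by 1.11 ± 0.29 log2 (edgeR adjusted p = 0.0262), at a level that cannot be told apart from RNA of other cells in the droplet. This call was lost with DESeq2 and with mixed glial barcodes kept, among others.

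Kcnj13, an inward rectifier of epithelia, was called in interneurons and oligodendrocytes. In interneurons it stood at 11.9 and 24.1 CPM in WT_PBS, 36.2 and 34.1 in 5xFAD_PBS and 56.7 and 60.7 in 5xFAD_Ab3FTnAu (log2 difference 1.84 ± 0.31, edgeR adjusted p = 0.0281). In oligodendrocytes it stood at 5.68 and 27.5, 30.1 and 32.3, and 43.9 and 80.8 (2.09 ± 0.52, edgeR adjusted p = 0.0490). In granule neurons, where the call was missed (edgeR adjusted p = 0.0756), it stood at 10.4 and 31.6, 34.5 and 32.6, and 62.3 and 64.8. WT_PBS replicate 1 was the lowest of the 6 libraries in all 8 classes, and Kcnj13 class medians lay between 17.3 and 42.5 CPM, so no class stood apart. Kcnj13 overlaps Gigyf2 on the opposite strand, and reads of the 2 genes cannot be told apart without the strand setting. The same holds for other called genes with a partner on the other strand, Kcnh1 with Hhat, Kcnip1 with Kcnmb1, Kcnab2 with Nphp4 and Kcna6, Kcnab1, Kcnip4, Kcnj3, Kcnj6 and Kcnma1 with predicted or clone-named transcripts.

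**Figure D4:**
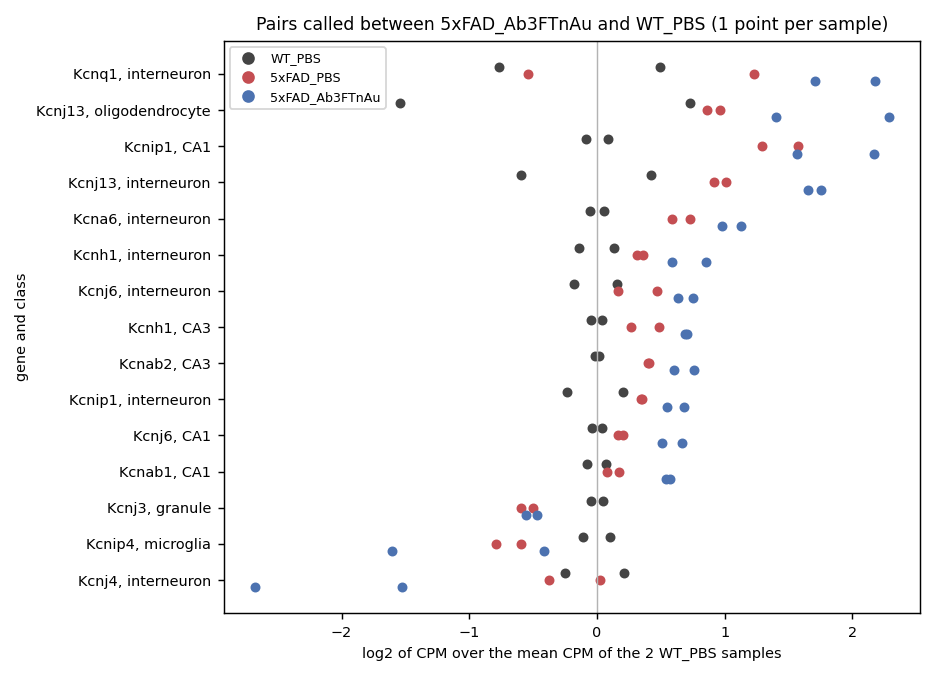
Each line of points is 1 of the 15 gene and class pairs called between 5xFAD_Ab3FTnAu and WT_PBS, with 1 point per sample at the log2 of its CPM over the mean of the 2 WT_PBS samples and colours for the 3 groups. In 10 of the pairs both 5xFAD_PBS points lie between those of the other groups, as for Kcna6 in interneurons. The pairs were picked for the difference between those other groups, so this count does not show a graded change.

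The called pairs rest on 11 genes, some in several classes. The 8 genes called higher had a median length of 259 kb, against 53.5 kb for the 68 members tested in at least 1 class, and the 3 called lower had 162 kb. Among cells with a mitochondrial UMI alone 6 pairs were called, and among cells with none 14. The shares of all genes called in these and the other alternative fits are not given, so such counts are no result about channel genes as a set. Neither the mitochondrial share nor length was tested as a source of the calls. Without 5xFAD_Ab3FTnAu replicate 2 no pair passed, without 5xFAD_Ab3FTnAu replicate 1 there were 2, without either 5xFAD_PBS library 3, without WT_PBS replicate 1 there were 34 and without WT_PBS replicate 2 there were 95. Of 27 partner genes tested in interneurons, Dpp6 rose and Atp1b1 and Atp1b2, sodium pump subunits, fell, and none was called in another class here.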

How the data were processed

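Single-cell UMI counts from 6 libraries were analysed. The deposited values are whole-number counts per gene and barcode, and per the file headers the authors made them using Cell Ranger 7.1.0. The submitters' processing notes name Seurat 4.3.0.1 and mm10. Whether introns and strand entered the counting is not stated. Barcodes with at least 500 genes, 1000 UMIs and at most 15% mitochondrial UMIs were kept. Those with the highest Scrublet scores (scanpy 1.11.5) were then removed as doublets. Their number was set at 0.8% per 1000 barcodes of the library and not by Scrublet's own calls. In WT_PBS replicate 1 that removed 1488 of 13640 barcodes, where Scrublet itself called 0%.

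A cell joined a class when its marker list held at least 3 UMIs and at least 2 markers exceeded 2 times what its depth predicts. A score summed the Poisson deviance, without its factor of 2, over the markers above that prediction. It had to be at least 5 and at least 2 times that of the next of 12 lists. Glial cells with at least 0.4% neuron-gene UMIs (mixed barcodes) and cells above 3 times their class's median depth were left out. UMIs were summed per sample and class. Tests were edgeR 4.0.16 quasi-likelihood fits over all genes passing its count filter (R 4.3.3): 1 fit of all 8 classes with the sample as a block, and 1 fit of the 3 groups per class, with Benjamini-Hochberg adjustment over the fit. They were tested on simulated data with 200 changed genes. Alternatives were DESeq2 1.42.0, other size factors, no count filter, other cell filters, each library left out and each group alone. Requiring a mitochondrial UMI, keeping mixed or very deep barcodes and leaving out microglia with vascular UMIs were chosen after seeing the data.

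Named genes were up to 3 members per class with the largest log2 difference among those called higher with a mean of at least 20 CPM, every member called between groups (or up to 2 with the smallest p), and a list of well-known channel genes. Kcng1, Kcng2, Kcnip2, Kcnj9, Kcnk9, Kcnk10, Kcnk12 and Kcnmb4 were named after their values were seen. The members, lists and rules were chosen with earlier results of these data known. Positions are from GENCODE vM21 (GRCm38). Some genes are not reported here.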

Additional observations from a re-analysis of the deposited data

Results flagged for a closer look

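A difference between classes in the effect of the 5×FAD transgenes was found for 2 pairs by edgeR's interaction test. For Kcnab1, the effect of 5xFAD_PBS against WT_PBS in oligodendrocytes minus that in granule neurons was 0.96 log2 (SE 0.19, edgeR adjusted p = 0.00444), with 2 of 2 5xFAD_PBS libraries above both wild-type ones in oligodendrocytes and below both in granule neurons. The adjusted p under alternatives that lost this call ran from 0.0861 (cells with no mitochondrial UMI) to 0.629 (DESeq2). For Kcnj2, the fitted microglial effect minus the granule effect was 4.60 log2 (edgeR adjusted p = 0.00655). Because WT_PBS microglia held 1 Kcnj2 UMI in all, that fitted value depends on the prior count and is not a bound on the fold.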

How the results depend on the processing

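Class calls for 24 named gene and class results kept direction and call in 444 of 446 alternative fits. Kcnh8 in CA2 and Kcnj2 in microglia lost theirs in WT_PBS libraries alone. Counts of members called in a class moved by over 1.5 times in 4 fits: CA2 from 21 to 9 in 5xFAD_PBS alone, interneurons from 23 to 37 without the count filter, and astrocytes from 39 to 21 and microglia from 43 to 24 in 5xFAD_Ab3FTnAu alone. Leaving out 1 library gave 35 to 37 in granule neurons, 26 to 31 in CA1, 17 to 21 in CA2, 28 to 34 in CA3, 22 to 26 in interneurons, 36 to 41 in astrocytes, 40 to 45 in oligodendrocytes and 41 to 44 in microglia.

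Group calls depended on the processing. The share of all genes called in each alternative is not given, so the counts below are no result about channel genes as a set. For 5xFAD_PBS against WT_PBS, 3 calls became 12 without the count filter, 0 with DESeq2, 8 with mixed glial barcodes kept, and 1 with the strict cell filter, with no mitochondrial UMI, with a mitochondrial UMI or with very deep barcodes kept. Kcnma1 in microglia turned to -0.23 with mixed glial barcodes kept. All 3 calls were lost with very deep barcodes kept and without WT_PBS replicate 1, so the calls counted in those fits are other pairs. Leaving out 1 library gave 0 (without either 5xFAD_PBS replicate) to 65 (without WT_PBS replicate 2), and 7 without WT_PBS replicate 1. For 5xFAD_Ab3FTnAu against 5xFAD_PBS, 0 became 19 without the count filter and 1 with DESeq2 or the strict cell filter, and 0 to 35 without 1 library (33 without WT_PBS replicate 1, 35 without WT_PBS replicate 2). For 5xFAD_Ab3FTnAu against WT_PBS, 15 became 52 without the count filter, 6 in cells with a mitochondrial UMI and 11 with DESeq2, doublets kept or very deep barcodes kept (of the 15, 8, 4 and 7 were lost in these last 3), and 0 (without 5xFAD_Ab3FTnAu replicate 2) to 95 (without WT_PBS replicate 2) without 1 library. For the class differences in effect, 2 became 3 without the count filter or with other size factors, 5 with doublets kept, 0 with the strict cell filter, 1 with no mitochondrial UMI, 4 with a mitochondrial UMI or double the marker UMIs, 21 with mixed glial barcodes kept and 6 with very deep barcodes kept, and 0 (without WT_PBS replicate 1) to 4 (without WT_PBS replicate 2). The causes were not tested.

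Replicate numbers are shared between groups, but same-numbered libraries did not clearly deviate alike. The median correlation of their deviations was -0.109 for 5xFAD_PBS and WT_PBS, where it ran from -0.314 to -0.0178 over classes. It was 0.0234 for 5xFAD_Ab3FTnAu and 5xFAD_PBS and -0.0874 for 5xFAD_Ab3FTnAu and WT_PBS. Pairing of libraries with unlike numbers was not tested. With the replicate block, calls numbered 3, 0 and 2 in the 3 comparisons, in the order above. Depth limits CA2 (5 to 24 cells per sample) and the glial classes, where members with few UMIs were not tested.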
